A study of Mus musculus with 4 samples.

Results

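The cells described here are the 271 cells of the early lesion library with the largest share of RNA from 5 milk protein genes, Wap, Glycam1, Csn2, Csn1s1 and Csn1s2a. They were chosen by ranking all 1085 called cells of that library on this share and keeping the top 25%, so the levels of the 5 genes are a description of the choice and not a result. UMIs are the molecular tags that let each captured RNA be counted a single time. A barcode was called a cell above a UMI minimum set for the library, with 250 or more genes found and no more than 20% of UMIs mitochondrial. They are 271 of 1905 called cells in all 4 libraries, and they are set against the 271 cells with the smallest share in their own library (the lowest 25%). Below, these are called the highest and the lowest group, and the cells between them the second group (271 cells) and the third group (272 cells).

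All 4 libraries came from MMTV-neu mice on the FvB background, whose neu (HER2, Erbb2) oncogene is driven by the MMTV promoter, a viral promoter active in mammary epithelium, and no mouse without the transgene was included. Each library held sorted cells negative for CD45, the leukocyte surface protein, and positive for HER2. The early lesion came from the mammary glands of mice aged 14 to 18 weeks without a palpable tumor. The primary tumor library came from mice older than 20 weeks, and 1 lung library was made at each of these stages. The sources used here do not say whether a library was 1 mouse or a pool, and with 1 library per group nothing here could be tested across animals.

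The alveoli of the mammary gland are lined by luminal cells that, in late pregnancy and lactation, make milk proteins and milk fat under the control of prolactin, its receptor Prlr and the transcription factors Stat5a, Stat5b and Elf5. Csn2, Csn1s1 and Csn1s2a encode caseins, which carry calcium and phosphate in milk. Wap encodes whey acidic protein, and Glycam1 encodes a mucin-like glycoprotein of milk. In the mouse, Wap is known as a marker of late alveolar differentiation.

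The positions of the 5 genes, on build mm10 with GENCODE release M21, were chr5:87692624-87699630 for Csn2, chr5:87666208-87682578 for Csn1s1, chr5:87774567-87788797 for Csn1s2a, chr11:6635482-6638637 for Wap and chr15:103562759-103565081 for Glycam1. The 180 bases before the start of each gene in the RefSeq promoter table (build GRCm38.p6) are shown because Stat5, the factor that prolactin activates, recognises the palindrome TTCNNNGAA. Capitals mark each match, and sequences run 5′ to 3′ on the gene's strand.
Csn2, chr5:87699426-87699605, minus strand: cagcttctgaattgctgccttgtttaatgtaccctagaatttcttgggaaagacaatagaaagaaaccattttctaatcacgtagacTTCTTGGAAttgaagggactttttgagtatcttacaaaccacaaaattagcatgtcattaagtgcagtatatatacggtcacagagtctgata
Csn1s1, chr5:87666028-87666207, plus strand: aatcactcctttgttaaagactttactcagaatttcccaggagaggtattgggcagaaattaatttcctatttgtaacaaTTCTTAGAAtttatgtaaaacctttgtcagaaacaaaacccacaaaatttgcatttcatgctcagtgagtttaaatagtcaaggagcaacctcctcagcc
Glycam1, chr15:103565082-103565261, minus strand: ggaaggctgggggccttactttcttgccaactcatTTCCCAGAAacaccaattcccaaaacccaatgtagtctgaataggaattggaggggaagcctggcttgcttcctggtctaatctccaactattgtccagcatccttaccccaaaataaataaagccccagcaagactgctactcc
Wap, chr11:6638650-6638829, minus strand: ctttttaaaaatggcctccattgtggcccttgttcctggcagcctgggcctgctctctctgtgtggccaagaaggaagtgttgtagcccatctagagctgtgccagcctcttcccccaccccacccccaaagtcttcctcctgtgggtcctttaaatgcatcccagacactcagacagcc
Csn1s2a, chr5:87774270-87774449, plus strand: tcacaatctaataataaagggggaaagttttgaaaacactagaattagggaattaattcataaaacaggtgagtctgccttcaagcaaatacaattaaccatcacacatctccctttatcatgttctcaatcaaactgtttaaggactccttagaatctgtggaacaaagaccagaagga
The match began 93 bases before the RefSeq start in Csn2, 100 bases before it in Csn1s1 and 145 bases before it in Glycam1. In Csn1s2a the stretch shown had none, and a match, TTCTTAGAA, began 20 bases after the RefSeq start. That match lay before the GENCODE start of Csn1s2a (87774567), since the RefSeq window ended at 87774499. RefSeq and GENCODE starts also differed for Wap and for Csn2, where the stretch shown lay inside the GENCODE gene. In Wap no match was present from 250 bases before to 50 bases after the start, which says only that these letters are not in this window. Over windows of that length, the motif (read on both strands, which are identical for a palindrome) was present for 9.55% of the 27025 genes of the table. Among genes called higher in the highest group below, 12 of the 148 with a promoter in the table held it (8.11%), among genes called lower 19 of 276 (6.88%), and among all genes tested 377 of 4748 (7.94%). A match is a description and not a bound site.

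In the 271 cells the 5 genes made up 21.7% of all UMIs, against 14.8% in the second, 9.52% in the third and 3.61% in the lowest group. Csn1s2a and Csn2 led, with 9.49% and 8.56% of the UMIs of the summed cells, followed by Csn1s1 with 2.43%. Glycam1 made up 1.09% and Wap 0.0924%. The 3 caseins thus supplied 94.5% of the 5-gene UMIs, and Wap and Glycam1, although among the genes that chose the cells, had little weight in the ranking. The cells are therefore casein-high cells first: 256 of 271 (94.5%) were also in the top 25% when the caseins alone were ranked, and 166 (61.3%) when Wap and Glycam1 alone were ranked.

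The share was a continuous measure with no gap at its limits. The lowest member stood at 17.35% and the next cell at 17.32%, and 52 members and 51 other cells lay within 1 percentage point of that limit. The lowest group reached up to 6.82%. Free RNA, read from barcodes with 1 to 50 UMIs, had a share of 12.6%, which lay above the median of all 1085 cells (12.2%) and below every member. In 19 cells of the library, markers of fibroblasts, vessels, smooth muscle, blood, fat or nerve had 5 or more UMIs and outnumbered luminal markers. Their median share was 0.927% at a median of 1584 UMIs.

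**Figure D1:**
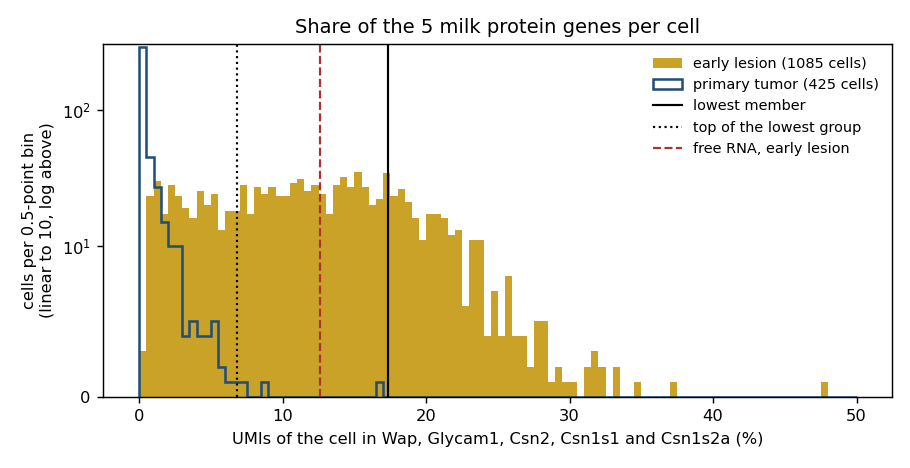
Number of cells (y axis, linear to 10 and logarithmic above) by the percent of a cell's UMIs in the 5 milk protein genes (x axis), for 1085 early lesion cells (filled) and 425 primary tumor cells (outline). The 271 members lie to the right of the solid line at 17.35%, the lowest group to the left of the dotted line at 6.82%, and the dashed line at 12.6% is the free RNA of the early lesion.

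No called cell outside the early lesion reached the members' limit. In the primary tumor 0 of 425 cells did, which allows a share of up to 0.706%, and the tumor's median was 0.233% with a highest cell at 16.5%. In the early lung 0 of 185 cells and in the late lung 0 of 210 cells reached it. The free RNA of the tumor held 0.732% of its UMIs in the 5 genes, so free RNA and cells differed between the libraries in the same direction.

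The 5 genes differed in how evenly the members held them. Csn2, Csn1s1 and Csn1s2a were found in all 271 cells, and Glycam1 in 267. Csn1s2a was the highest of the 5 in 183 cells and Csn2 in 88. Wap, in contrast, was found in 175 cells (64.6%), 49 of which had a single UMI, and 59 cells had 5 or more. The 10 cells with most Wap held 27.6% of its 1000 UMIs in the highest group. In the second, the third and the lowest group, Wap was found in 128 of 271, 78 of 272 and 30 of 271 cells, with 358, 147 and 34 UMIs. Glycam1 had 11817, 4484, 1750 and 356 UMIs from the highest to the lowest group.

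The proportions of the caseins differed along the ranking. There were 0.902 UMIs of Csn2 and 0.256 of Csn1s1 for each UMI of Csn1s2a in the highest group, against 1.33 and 0.660 in the lowest. The free RNA had 0.955 and 0.365. Csn1s2a was accordingly the most abundant of the 5 in fewer cells of the lowest group (73 of 271), where Csn2 led in 172.

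**Figure D2:**
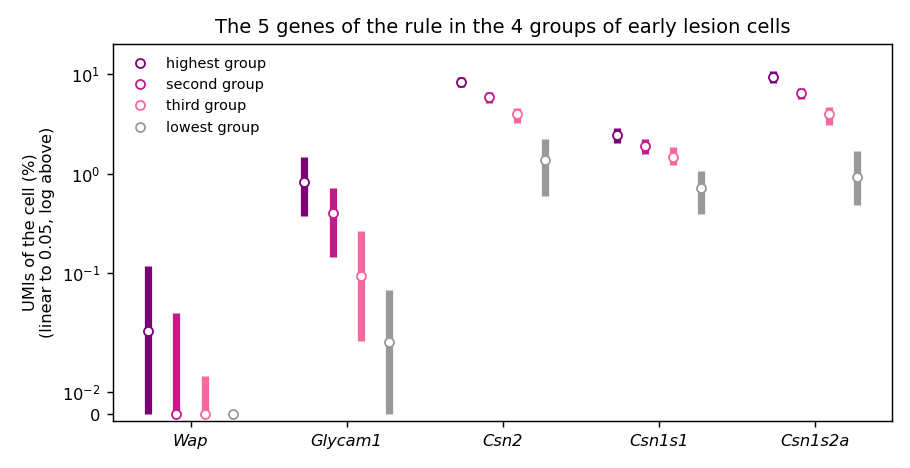
Percent of a cell's UMIs (y axis, linear to 0.05 and logarithmic above) from each of the 5 genes in the 4 groups of early lesion cells; circles are medians over cells and bars run over the middle 50% of cells. The median of Wap is 0.0375% in the highest group and 0 in the other 3, while that of Csn1s2a is 9.29% in the highest and 0.925% in the lowest.

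Depth differed between the groups. The median cell had 3378 UMIs in the highest and 2357 in the lowest group, and 2682 against 2321 once the 5 genes were left out. When every cell was thinned to 500 UMIs without the 5 genes, which left out no cell, a median of 340 and 337 genes were found. The median mitochondrial share was 0.119% and 0.121%. None of the 271 barcodes was found among the called cells of another library.

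The remaining genes were compared as counts per 1000000 UMIs without the 5 genes (CPM), summed over the cells of each group. Of 6185 genes with 20 or more counts over both sums, 199 were called higher in the highest group (3.22%) and 388 lower (6.27%), so 33.9% of calls were higher. With all UMIs as the denominator, the 5 genes included, 86 were higher and 740 lower (10.4% higher), since the median of genes with 100 or more counts moved from 0.01 to -0.28. Called means a difference of at least 2-fold, with 0.5 counts added to each sum, and an exact 95% interval of the ratio that excludes 1. These intervals cover counting error only, take each UMI as independent and leave out the spread between cells and mice, so they are too narrow where few cells hold a gene. Because the groups were chosen on measured values of the same cells, the differences are a description and carry no test.

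**Figure D3:**
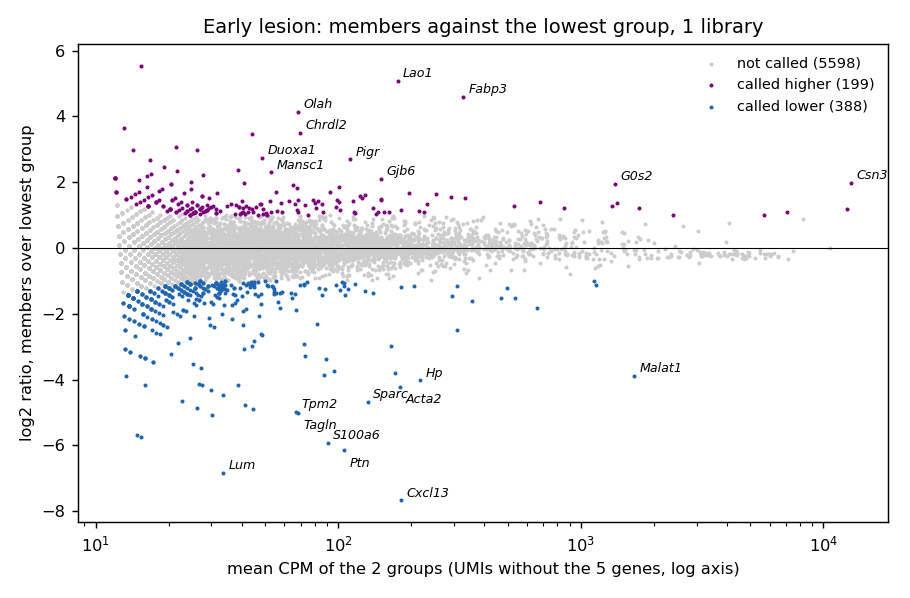
log2 ratio of the highest over the lowest group (y axis) against the mean CPM of both groups (x axis, logarithmic) for 6185 genes of the early lesion, with 199 called higher and 388 called lower. Lao1, Fabp3 and Olah stand apart among the higher genes and Cxcl13, Lum, Ptn and S100a6 among the lower.

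Among genes at 50 CPM or more, the higher genes whose intervals lay farthest from equality included an enzyme of milk and genes of milk fat. Fabp3, which encodes a fatty acid-binding protein of the lactating gland and of muscle, had 629, 237, 103 and 25.5 CPM from the highest to the lowest group, on 533, 199, 86 and 19 counts. Every group thus lay above the next, and the log2 ratio of the outer ones was 4.59 (95% interval 3.97 to 5.37). Lao1, which encodes an L-amino acid oxidase secreted in milk, had 342, 93.0, 31.0 and 9.39 CPM, and its log2 ratio was 5.09 (4.13 to 6.52) on 290 against 7 counts. Olah, the thioesterase that releases medium-chain fatty acids from fatty acid synthase, had 130, 56.0, 19.1 and 6.70 CPM and a log2 ratio of 4.14 (3.01 to 5.93). In free RNA the 3 genes had 239, 124 and 38.1 CPM, between the levels of the highest and the lowest group.

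These 3 genes were spread over many cells of the highest group and were not in all of them. Fabp3 was found in 143 of 271 members against 16 of 271 cells of the lowest group, Lao1 in 94 against 6 and Olah in 58 against 5. After thinning to 500 UMIs, Fabp3 was found in 25.5% of members (exact interval 20.4% to 31.1%) and 3.32% of the lowest group (1.53% to 6.21%), and Lao1 in 11.4% against 1.11%. A pseudogene copy, Fabp3-ps1, had 69 against 5 counts, and how reads were divided between it and Fabp3 is uncertain. The 2 cells with most Fabp3 held 8.26% of its counts in the highest group. No UMI of Fabp3, Lao1 or Olah was found in 81 members, whose median depth was 2409 UMIs, and all 3 were found in 25 members with a median of 5186 UMIs, so the number found moved with depth. In the 19 cells with more markers of other types than luminal markers, Fabp3 had 1 count and Lao1 0. That is 30.8 CPM of Fabp3 (counting interval 0.781 to 172), beside 25.1 CPM in the lowest group without such cells. The counts are too few to set the 19 cells apart from that group.

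Other leading higher genes were Chrdl2, a chordin-like secreted protein, with 129 against 10.7 CPM and a log2 ratio of 3.50 (2.55 to 4.83). Pigr, the receptor that carries immunoglobulin A across the epithelium into milk, had 195 against 29.5 CPM (log2 ratio 2.69). Duoxa1, a maturation factor of the hydrogen peroxide-making enzyme Duox1, had 85.0 against 12.1 CPM (2.75). G0s2, an inhibitor of triglyceride breakdown, had 2198, 1944, 1241 and 566 CPM over the 4 groups (1.96). Gjb6, a connexin, had 244 against 56.3 CPM (2.10), and Mansc1 had 88.5 against 17.4 CPM (2.30).

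**Figure D4:**
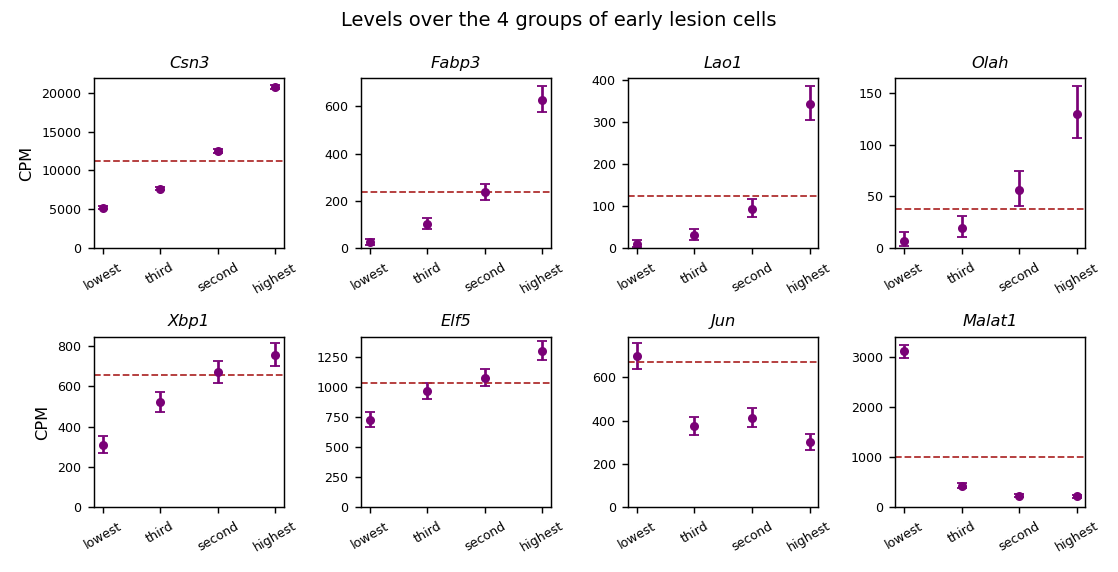
CPM without the 5 rule genes (y axis, from 0) of 8 genes in the 4 groups of early lesion cells (x axis); bars are exact 95% Poisson intervals for counting error and the dashed line is the level in free RNA. Csn3, Fabp3, Lao1 and Olah increase at each step from lowest to highest group, while Malat1 is at 3107 CPM in the lowest group and between 210 and 424 CPM in the other 3.

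Most milk protein genes outside the rule were also higher. Of the 15 genes in the list, 12 had enough counts, 9 were called higher and none lower, and the median log2 ratio was 1.21 against -0.06 for all genes tested. Over all genes tested, 3.22% were called higher and 6.27% lower, and each list count below is to be read beside these shares. Csn3, the casein that stabilises the casein micelle, had 20726, 12517, 7643 and 5235 CPM over the 4 groups and a log2 ratio of 1.99 (1.94 to 2.04). Lalba, the subunit that directs lactose synthesis, had 1912 CPM in the highest group and 720, 670 and 783 CPM in the other 3, so its difference lay at the top step. Wfdc18, a whey protein, had 17316 against 7585 CPM and was found in 271 and 257 cells. Trf (transferrin), Spp1 (osteopontin), Muc15, Cel (the bile salt-stimulated lipase of milk), Pigr and Folr1 (folate receptor) were the other higher members, with log2 ratios from 1.02 for Spp1 to 2.69 for Pigr. Mfge8, the lactadherin of the milk fat globule, was at 894 against 1070 CPM and Ltf (lactoferrin) at 155 against 153 CPM, and neither was called. With all UMIs as the denominator, 4 of the 12 were called higher, Lalba no longer among them, and the median was 0.91.

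The genes of milk lipid synthesis and secretion showed the same direction: 20 of 27 had enough counts, all 20 ratios were above 0, 11 were called higher, and the median log2 ratio was 1.06. Beside Fabp3 and Olah, Cidea, which joins and enlarges lipid droplets, had 64.9 against 12.1 CPM (2.36). Thrsp, a regulator of fatty acid synthesis, had 2039, 1732, 1233 and 783 CPM (1.38). Btn1a1, the butyrophilin of the milk fat globule membrane, had a log2 ratio of 1.14, Plin2, the coat protein of lipid droplets, 1.01, Lpl 1.48 and Scd1 1.10. The fatty acid synthase gene Fasn (51 against 30 counts, 0.57), Acaca (17 against 6), Acly (0.87) and Xdh (0.59) were above 0 and not called. With all UMIs as the denominator 7 of the 20 were called and the median was 0.76.

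Transport genes were divided. Among 13 with enough counts, 6 were called higher and 2 lower, beside 3.22% and 6.27% of all genes tested. Aqp3, a channel for water and glycerol, had 26 counts in the highest group and none in the lowest, so it was at least 7.63-fold higher. Slc2a1, the glucose transporter GLUT1, had 40 against 4 counts (47.2 against 5.36 CPM). Car6, the carbonic anhydrase secreted in saliva and milk, had 40.1 against 9.39 CPM and Car2 1189 against 515 CPM, and Kcnn4 and Slc7a5 were the other higher genes. Atp1b1 (23 against 45 counts) and Slc12a2 (6 against 18 counts, in 5 and 4 cells) were lower. With all UMIs as the denominator 3 were higher and 2 lower, and Car2 (0.91) was not called.

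**Figure D5:**
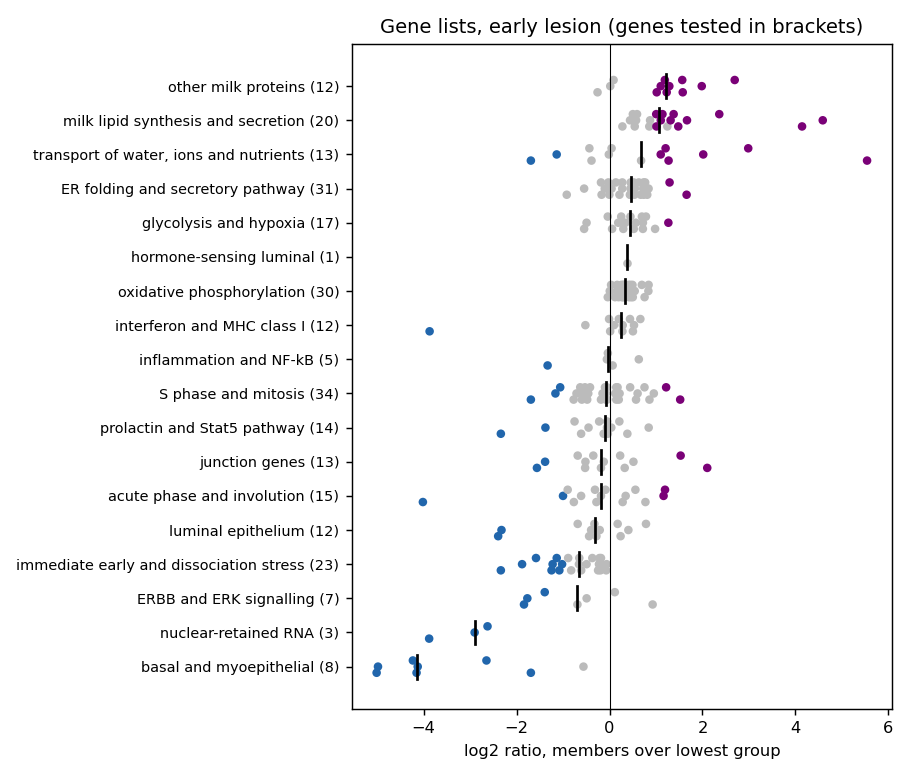
log2 ratio of the highest over the lowest group (x axis) for each gene of the 18 lists (rows, with the number of genes with 20 or more counts); purple points are called higher, blue lower and grey neither, and black bars are list medians. The medians of milk protein and milk lipid genes are 1.21 and 1.06, and that of basal genes is -4.14.

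Genes of protein folding and secretion in the endoplasmic reticulum differed less. Of 31 genes with enough counts, 24 were above 0, 2 were called higher and none lower, beside 3.22% and 6.27% of all genes tested. The median was 0.46 (0.16 with all UMIs as the denominator). Xbp1, a transcription factor of secretory cells, had 756, 670, 521 and 308 CPM over the groups (1.29, interval 1.07 to 1.52, not called with all UMIs as the denominator), and Sdf2l1, an endoplasmic reticulum protein, had 30 against 8 counts. The chaperone Hspa5 (0.84) and the translocon subunit Sec61b (0.74) were not called, and Ddit3, which responds to unfolded proteins, had 10 against 13 counts. In oxidative phosphorylation 0 of 30 genes was called, with a median of 0.32 that became 0.03 with all UMIs as the denominator. In the list of glycolysis and hypoxia genes 1 of 17 was called, Ero1l with 20 against 7 counts, a call lost under 11 of its 17 alternatives.

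In the prolactin pathway, of 14 genes with enough counts, none was called higher and 2 lower, beside 3.22% and 6.27% of all genes tested. The median was -0.09. Elf5 had 1297, 1070, 965 and 723 CPM over the 4 groups (0.84, interval 0.69 to 0.99), below the 2-fold limit. Stat5a had 95.6 against 99.2 CPM (-0.05, interval -0.53 to 0.42), and Stat5b 25 against 24 counts. Cish, a feedback inhibitor that Stat5 induces, had 22 against 20 counts. Prlr had 15 against 35 counts, but 23 of the 35 came from 3 cells with mitochondrial shares over 5%. When cells over 5% were left out, its log2 ratio was 0.14. Socs3, an inhibitor of cytokine signalling, was lower, with 5 against 24 counts.

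Luminal identity was shared by both outer groups. The 11 luminal markers summed to 8441 CPM in the highest and 6960 CPM in the lowest group, with at least 3 UMIs in 269 and 250 cells. Epcam, the epithelial adhesion molecule, had 1110 against 838 CPM and Krt8 979 against 868 CPM. Krt18 (1154 against 1519 CPM) and Cdh1 (30.7 against 49.6 CPM) went the other way. Among 12 genes of the luminal list with enough counts, 4 ratios were above 0 and 8 below, with a median of -0.30. Of these 12, 2 were called lower and none higher, beside 6.27% and 3.22% of all genes tested. Krt7, a keratin, had 8 against 37 counts in 6 and 32 cells, and Aldh1a3, an aldehyde dehydrogenase, had 5 against 25 counts, the 5 in a single cell. Of the hormone-sensing luminal genes, 1 of 12 had enough counts, Ly6a with 21 against 14. Junction genes were divided, with 2 of 13 higher and 2 lower. Gjb2 and Gjb6, connexins of the lactating gland, had log2 ratios of 1.53 and 2.10, while Cldn4, a claudin, had 31 against 72 counts and Tjp1 7 against 19.

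Erbb2 itself was scarce in both groups, with 9 counts in the highest and 13 in the lowest (-0.69, interval -2.12 to 0.62), and the files have no separate feature for the rat transgene. Ptprc, which encodes CD45, had 0 and 3 counts, and the 14 leukocyte markers together 12 and 21. In the ERBB and ERK list 3 of 7 genes with enough counts were lower and none higher, beside 6.27% and 3.22% of all genes tested. The 3 lower genes were the feedback inhibitors Errfi1 (17 against 40 counts), Spry2 (7 against 22) and Dusp6 (6 against 20). None of the 3 was called when cells were ranked by Wap and Glycam1 alone or when the top and bottom 50% were compared, and Spry2 and Dusp6 were not called when a higher UMI minimum was set. Their log2 ratios were below 0 in each alternative computed.

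Genes of other cell types and of the nucleus were among the lowest ratios, and for several of them a few cells of the lowest group held most of the counts. In the lowest group 17 of 271 cells had more markers of other cell types than luminal markers, against 0 in the highest. The 10 fibroblast markers had 7 against 241 counts, and Lum, a proteoglycan of the matrix, had 0 against 50, or at least 18.9-fold lower, with 94.0% of the 50 in 2 cells. The 8 pericyte and smooth muscle markers had 18 against 369 counts, of which Acta2, smooth muscle actin, supplied 15 and 256. Acta2 and Myh11 are also in the basal and myoepithelial list, so their counts enter both lists. Of the basal and myoepithelial list, 7 of 8 genes with enough counts were lower, with a median of -4.14. Without the 19 cells with more markers of other types, 1 of 3 was lower with a median of -0.53, and Acta2 (15 against 256 counts, -4.23) moved to 0.48. Acta2 and Myh11 were among the markers that chose the 19 cells, which held 262 counts of Acta2. These changes therefore follow at least in part from the choice and are not a result.

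The other lowest ratios differed in how many cells held them. Cxcl13, a chemokine for B cells, had 1 against 269 counts, of which 99.3% were in 2 cells. Hp, the acute phase protein haptoglobin, had 21 against 306 counts, with 60.8% of the 306 in 2 cells, and Ptn, the growth factor pleiotrophin, had 2 against 156, with 54.5% in 2 cells. S100a6, a calcium-binding protein, was more widely spread, with 2 against 133 counts in 2 and 32 cells. Ifitm3, an interferon-induced membrane protein, had 9 against 122 counts in 9 and 51 cells. Sparc, a matrix protein, had 8 against 190 counts, and Tagln and Tpm2, genes of smooth muscle, had 3 against 99 and 3 against 97. Over all called genes, the 2 richest cells held at least 50% of the counts of 30 of the 388 lower genes and 1 of the 199 higher genes.

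Malat1, a long RNA kept in the nucleus, had 210, 222, 424 and 3107 CPM over the 4 groups (-3.88, interval -4.11 to -3.67), so the lowest group stood apart from the other 3. Of its 2317 counts there, 1379 came from 11 cells with a mitochondrial share over 5%, of which the highest group had 3. The same 11 cells held 73 of 95 counts of Xist and 51 of 62 of Neat1, both also nuclear RNAs. Without cells over 5%, Malat1 was at -2.57 and the only 1 of the 3 still called. Over all genes, leaving out cells over 5% gave 196 higher and 332 lower, of which 182 and 308 were the same genes as before. The 11 cells held 24 of the 256 counts of Acta2, 32 of the 306 of Hp and none of the 269 of Cxcl13, genes of the paragraphs above.

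Immediate early genes respond within minutes to stimulation and to tissue dissociation. They were listed together with heat shock and other stress genes, and with Socs3 of the prolactin list. The genes of this joint list had ratios in 1 direction. All 23 with enough counts had ratios below 0, 8 were called lower (beside 6.27% of all genes tested), and the median was -0.65. Jun had 299, 414, 374 and 699 CPM (-1.23, interval -1.45 to -1.01), Klf6 28.3 against 106 CPM and Fosb 18.9 against 57.7 CPM, while Fos (903 against 1378 CPM, -0.61) was not called. Ranking by Wap and Glycam1 alone gave 0 of 23 called and a median of -0.01. In free RNA, Fos was at 1551 CPM and Jun at 673 CPM.

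Dividing cells were found in every group. At least 3 UMIs of 17 genes of division were found in 28.4% of members (exact interval 23.1% to 34.2%), 41.3% of the second (35.4% to 47.4%), 36.4% of the third (30.7% to 42.4%) and 27.7% of the lowest group (22.4% to 33.4%). These intervals cover only the counting of cells within 1 library. The shares were not thinned and the depths were unequal, so a difference between the groups was not tested. Of 34 genes of S phase and mitosis, 2 were higher and 3 lower, beside 3.22% and 6.27% of all genes tested. Cenpf had 19 against 55 counts and Cenpa 55 against 109 (not called under 6 of 19 alternatives), while Mcm6, a subunit of the replication helicase, had 96 against 36 (not called under 4 of 20, among them all UMIs as the denominator and dividing cells left out). In the acute phase and involution list 2 of 15 were higher, Ctsb and Saa1, and 2 lower, Hp and Lrg1, with the calls of Saa1 and Lrg1 each lost under 7 alternatives and that of Ctsb under 4. In the NF-kB list 1 of 5 was lower, Icam1, and in the interferon and MHC class I list 1 of 12, Ifitm3, again beside 6.27% of all genes tested.

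The members differed among themselves. The 166 that were also in the top 25% by Wap and Glycam1 had 1.63% of their UMIs in Glycam1, against 0.325% in the other 105. That difference follows from how the 166 were chosen and is not a result. The 166 and the 105 also differed in the share of the 5 genes together (22.6% against 20.3% of UMIs) and in median depth (3234.5 and 3709 UMIs). The 166 had 837 CPM of Fabp3 (counting interval 758 to 921) against 339 (281 to 406), and 488 of Lao1 (429 to 554) against 138 (102 to 183). Lalba had 2275 against 1405 CPM. Csn3 (21949 against 19019), Plin2 (3150 against 3253), Xbp1 (762 against 749), Elf5 (1323 against 1261) and Epcam (1145 against 1063) lay closer together. Between the 135 members with the higher and the 136 with the lower 5-gene share, Fabp3 had 893 against 383 CPM and Cidea 103 against 29.6, while G0s2 had 2210 against 2188.

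The middle groups lay between the outer ones for part of the called genes. Of the 199 higher genes, 106 were in order over all 4 groups and 147 had both middle groups between the outer ones. Of the 388 lower genes, 192 and 279 did so. Free RNA of the library lay between the outer groups for 184 of the 199 higher and 341 of the 388 lower genes. All these genes were chosen for a difference between the outer groups, and free RNA comes from the same library. A level in between is therefore likely from the choice alone. The same counts over all genes tested are not given, so these numbers are a description.

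The primary tumor was ranked in the same way, as a library the rule did not use, although its top 25% (106 cells) held only 1.59% of UMIs in the 5 genes, mostly Csn1s1 and Csn1s2a. Of 5990 genes, 982 were called higher (16.4%) and 402 lower (6.71%) against its lowest 106 cells. In the top 25%, 14 cells with more than 10000 UMIs held 81.8% of the UMIs. Without cells over 10000 UMIs, 108 of 2505 genes were higher (4.31%) and 100 lower (3.99%). Csn3 was higher in both, with log2 ratios of 1.91 (1.84 to 1.99) and 1.85 (1.76 to 1.94), close to 1.99 in the early lesion. Trf had 1.63 and 1.14, against 1.10 in the early lesion.

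The 10 leading higher genes of the early lesion differed in their level in the tumor. Fabp3 had no count in either outer group of the tumor, Lao1 had 19 and 0, Olah 1 and 0, Chrdl2 0 and 0, Gjb6 0 and 0, and Pigr 20 and 3. The other 4 were well counted: Csn3 had 23583 against 6253 CPM, Duoxa1 817 against 281, G0s2 503 against 547 and Mansc1 180 against 45.2. Csn3, Duoxa1 and Mansc1 were called higher, and without cells over 10000 UMIs Csn3 alone of the 10 was. Of the 126 higher genes that could also be compared in the tumor, 50 were called higher there (39.7% of these 126, and 7.82% of the tumor's 639), beside 12.7% of all 5014 genes tested in both. Without cells over 10000 UMIs it was 8 of 47, or of the tumor's 103, beside 4.20% of 2450 genes. Of the 260 lower genes, 17 were lower in the tumor (6.54%, out of 386 in the tumor), beside 7.70% of all genes tested in both, and 70 were higher (26.9%, beside 12.7%). Without cells over 10000 UMIs, 4 of 78 were lower (5.13%, beside 3.88%) and 6 were higher (7.69%, beside 4.20%).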

How the data were processed

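Droplet single-cell libraries (10x Chromium 3' v2) of sorted CD45- HER2+ cells were analysed from 4 samples. The files the authors deposited hold whole-number UMI counts per gene and barcode without normalization, with 737280 barcodes listed. Per the submitters' processing notes, the genome build was mm10. The aligner and counter are not given in the sources used here.

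The cells, their 5 genes and the gene lists were chosen with earlier results of these data known. Each library had its own UMI minimum for a cell. Doublets were kept: scrublet (scanpy 1.11.5) marked 5 of 1085 cells (0.461%), too few to count as working. Counts were summed per group and ratios and intervals computed with scipy 1.17.1, tested on simulated Poisson counts. The simulation had no spread between cells, so it could not show whether the intervals hold for genes held by few cells. Total counts of the libraries ranged from 743765 to 6366768.

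Genes at 50 CPM or more were ranked by whichever interval bound lay closer to equality, and the 10 at each end were named, with up to 4 called members per list (otherwise the 2 with most counts), and Erbb2, Ptprc, Prlr, Stat5a and Elf5. Mitochondrial, ribosomal protein, predicted, Rik and pseudogene entries were left out of this choice, and further list members are named as examples chosen after their values were seen. Alternatives changed the denominator, scaling, filters, group width, score genes, depth and cells kept. A floor of 3 counts gives bounds where a sum is 0.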

Additional observations from a re-analysis of the deposited data

Results flagged for a closer look

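Over all genes tested in both libraries, 70 that were lower in the highest group of the early lesion were called higher in that of the primary tumor, and 5 that were higher were called lower. Among the genes chosen for naming, 6 had such opposite calls. The difference between the libraries was not tested, since each is 1 library. Malat1 had a log2 ratio of -3.88 in the early lesion and 2.64 in the tumor, 6.52 apart. Xist had -2.90 and 4.19 (7.09 apart), and Neat1 -2.63 and 1.68 (4.30 apart). Prlr had -1.38 and 4.98 (6.36 apart), on 63 and 0 counts in the tumor, where the fitted value depends on the 0.5 counts added. Klf6 had -1.88 and 1.75 (3.63 apart), and Cldn4 -1.39 and 2.01 (3.39 apart). On the side of the early lesion, Prlr, Xist and Neat1 were no longer called once cells with a mitochondrial share over 5% were left out. Without tumor cells over 10000 UMIs none of the 6 was called in the tumor. Malat1 was then at -0.43 and Xist at 0.68, and the other 4 had fewer than the 20 counts needed (4 and 15 for Neat1, 3 and 0 for Prlr, 5 and 3 for Klf6, 12 and 2 for Cldn4).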

How the results depend on the processing

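Called genes numbered 199 higher and 388 lower. With all UMIs as the denominator they were 86 and 740, which moved the median of genes with 100 or more counts from 0.01 to -0.28 (log2) and the share of higher calls from 33.9% to 10.4%. A minimum of 100 counts gave 60 and 49 (55.0% higher). With 5 counts added 128 were higher, and with the top and bottom 50% 93. A minimum of 5 counts gave 787 lower, the top and bottom 10% 240, and ranking by Wap and Glycam1 188. The genes called also changed. Ranking by Wap and Glycam1 called again only 85 of the 199 higher and 132 of the 388 lower genes, and the top and bottom 50% only 54 and 144. Ranking by the 3 caseins called 174 and 354 again. In the tumor, cells up to 10000 UMIs gave 108 higher and 100 lower, and a mitochondrial limit of 5% 266 lower. Ranking by Wap and Glycam1 reversed Lum (0.99), Ccnb1 (0.26), Fosb (0.020) and Ero1l (-0.015). The top and bottom 50% reversed Saa1 (-0.056), and the limit of 5% Prlr (0.14). Leaving out cells with more markers of other types reversed Acta2 (0.48), as did a wider exclusion chosen after seeing the data (0.31). Both exclusions counted Acta2 among their markers. The cause was not tested. The 10 leading higher genes stayed called under every alternative that could be computed for them. No paired analysis was possible because each group has 1 library. Erbb2 (9 and 13 counts) and 11 of 12 hormone-sensing genes had too few counts to show a modest difference.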
